A study of Mus musculus with 36 samples.

Results

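Mouse fibroblasts reprogrammed with chemicals toward a photoreceptor fate were compared with the mature cells they were meant to resemble, rods isolated from the retina at postnatal day 28. The comparison takes in 3 libraries of reprogrammed cells, labelled CiPC, and 4 libraries of P28 rods, 7 of the 33 libraries in the deposited expression table. CiPC were mouse embryonic fibroblasts kept in photoreceptor induction medium with 5 chemicals, which the labels do not name, and collected on day 11. P28 rods were isolated from postnatal day 28 animals, and P5, P14 and other ages of isolated rod are given beside them for some genes. Both groups carried the Nrl-GFP strain background, in which the promoter of the rod factor gene Nrl drives green fluorescent protein, and cells were sorted on promoter reporter expression before 80 ng of total RNA were taken per sample, per the labels' protocols. That protocol is worded alike for every sample and names neither the promoter nor the gate. All 15289 genes of the table were considered, and the 13243 with a normalized CPM of at least 1 in at least 3 of the 7 libraries were tested.

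A rod is the photoreceptor for dim light. Its disc-filled outer segment, a modified cilium, holds the visual pigment, which on catching a photon activates the G protein transducin; transducin switches on a phosphodiesterase that breaks down cyclic GMP, and the cation channels held open by cyclic GMP close. The transcription factors Otx2, Crx, Nrl and Nr2e3 set up and maintain this programme, and mouse rods keep maturing for several weeks after birth. Fibroblasts, by contrast, divide in culture, build extracellular matrix and carry contractile stress fibres.

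The promoters of 4 rod genes and of 1 contractile gene show the sequence features that were counted across the called genes. Each was taken from promoters that hold the motif marked in it, so the match there was fixed by the choice. Each stretch, from RefSeq on build GRCm38.p6, runs from 250 bases before to 50 bases after the annotated start and is written on the gene's own strand. Capitals mark TAATCC, the core bound by Crx and Otx2, or its reverse complement GGATTA in the rod genes, and the CArG box, the site of serum response factor, in Myl9. Sag, encoding rod arrestin, lies at chr1:87803430-87803729 on the plus strand. Rbp3, encoding the retinoid carrier between photoreceptors and pigment epithelium, lies at chr14:33953753-33954052 on the plus strand. Gngt1, encoding the gamma subunit of rod transducin, lies at chr6:3993758-3994057 on the plus strand. Cnga1, encoding the channel gated by cyclic GMP, lies at chr5:72642703-72643002 on the minus strand. Myl9, encoding the smooth muscle regulatory light chain, lies at chr2:156775214-156775513 on the plus strand.
Sag: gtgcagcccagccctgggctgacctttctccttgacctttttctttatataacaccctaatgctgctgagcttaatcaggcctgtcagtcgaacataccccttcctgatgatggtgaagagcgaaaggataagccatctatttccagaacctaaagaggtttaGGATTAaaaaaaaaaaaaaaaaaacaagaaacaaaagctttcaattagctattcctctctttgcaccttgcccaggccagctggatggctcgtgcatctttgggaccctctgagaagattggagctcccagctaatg
Rbp3: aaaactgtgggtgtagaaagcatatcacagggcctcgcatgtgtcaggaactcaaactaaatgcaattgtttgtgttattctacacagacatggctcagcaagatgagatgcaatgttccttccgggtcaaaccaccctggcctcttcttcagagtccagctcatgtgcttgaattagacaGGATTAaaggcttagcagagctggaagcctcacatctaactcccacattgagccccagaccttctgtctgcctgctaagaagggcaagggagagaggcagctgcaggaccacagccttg
Gngt1: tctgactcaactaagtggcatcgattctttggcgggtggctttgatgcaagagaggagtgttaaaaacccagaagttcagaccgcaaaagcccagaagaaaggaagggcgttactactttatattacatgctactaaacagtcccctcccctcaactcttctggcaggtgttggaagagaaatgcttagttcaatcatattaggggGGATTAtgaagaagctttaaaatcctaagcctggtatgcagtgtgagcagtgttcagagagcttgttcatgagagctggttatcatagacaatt
Cnga1: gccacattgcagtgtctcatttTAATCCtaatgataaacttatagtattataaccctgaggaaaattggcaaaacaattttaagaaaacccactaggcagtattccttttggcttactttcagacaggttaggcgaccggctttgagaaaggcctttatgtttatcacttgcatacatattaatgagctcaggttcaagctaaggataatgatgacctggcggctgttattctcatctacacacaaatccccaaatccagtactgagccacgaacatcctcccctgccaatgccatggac
Myl9: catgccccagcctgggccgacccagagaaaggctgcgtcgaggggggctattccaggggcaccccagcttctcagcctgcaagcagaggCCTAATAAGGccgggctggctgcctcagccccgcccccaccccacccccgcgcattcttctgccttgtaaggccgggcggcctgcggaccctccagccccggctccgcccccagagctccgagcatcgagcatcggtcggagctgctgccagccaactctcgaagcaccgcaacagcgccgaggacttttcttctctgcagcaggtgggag

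The first base of the match lay 87 bases before the start in Sag, 69 in Rbp3, 44 in Gngt1 and 228 in Cnga1, and the CArG box of Myl9 began 161 bases before its start. TAATCC on either strand was found in 11 of the 27 promoters (40.7%) of the 24 genes of the phototransduction and disc lists that have one in the table. It was found in 7.54% of the promoters of all genes lower in CiPC, 4.51% of those of genes higher in CiPC and 5.76% of those of all genes tested. TGCTGA on either strand, part of the element bound by Nrl, was found in 14.8% of the rod promoters and 15.5% of those of all genes tested; it is not capitalised in the sequences shown, of which Sag and Rbp3 hold it. The CArG box was found in 3 of 10 promoters of the contractile list and in 1.33% of those of all genes tested. All 4 rod genes shown were lower in CiPC. Gngt1 averaged 14.7 ± 1.72 CPM in CiPC and 7372 ± 1453 CPM in P28 rods (SD, n = 3 and 4), Cnga1 averaged 6.47 ± 0.426 CPM in CiPC and 4759.5 ± 294 CPM in P28 rods, and these 2 genes were picked for display after their values were seen. A match is a run of letters in a window and says nothing of binding in these cells.

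The values of the table are CPM that the authors normalized further, so library totals were no longer equal and sequencing depth is unknown. Column sums ran from 819893 to 824208 in CiPC and from 1928256 to 2277242 in P28 rods. The 10 most abundant genes took 5.91 to 6.42% of a CiPC library, against 24.9 to 30.8% of a P28 library, and 12983 to 12996 genes reached 1 CPM in CiPC, against 10816 to 10902 in P28 rods. Pearson correlations across genes on log2(CPM + 1), where genes are not independent replicates, were 0.992 to 0.996 between CiPC libraries, 0.981 to 0.995 between P28 libraries and 0.655 to 0.666 across the groups. The labels tie the P28 rods to records of an earlier deposit and the CiPC to the present one, so deposit and group cannot be told apart. Checks of 2 kinds are therefore given with most gene groups, namely whether calls held under all 4 other scalings of the table, and whether they held in a contrast bridged through rods of near age (CiPC minus P5 rods of the present deposit, plus the mean of P4 and P6 rods of the earlier one minus P28 rods). P28 replicate 1 stood apart from the other 3 P28 libraries, with 24.1% of its total in the phototransduction and disc genes against 28.6 to 29.9% in the others. Without it, 4779 genes were higher and 3369 lower, against 4702 and 3326 with it.

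Of the 13243 genes tested, 4702 (35.5%) were higher and 3326 (25.1%) lower in CiPC than in P28 rods. A gene was called where limma's moderated test gave a Benjamini-Hochberg adjusted p under 0.05 and the groups differed by at least 1 on the log2(CPM + 1) scale, on which every difference below is given as CiPC minus P28 rods. That scale understates the fold of genes with low CPM. The median difference was 2.47 over the higher genes, -1.83 over the lower genes and 0.16 over all genes tested. At the extremes, 25 genes were higher and 26 lower by at least 8 on this scale. The libraries of the groups did not overlap for 4672 of the higher and 3317 of the lower genes. Of the higher genes, 3310 (70.4%) were called in the same direction under all 4 other scalings and 4089 (87%) in the bridged contrast; of the lower genes, 1156 (34.8%) and 2556 (76.8%) were. The split between directions depended on the scaling. Higher genes made up 58.6% of calls as deposited and with median-of-ratios scaling, 47% after quantile normalization, 87% with every library set to the same sum, and 76% with that sum taken without rod and mitochondrial genes. The median of all genes tested sat at 0.16, 0.16, -0.115, 1.33 and 0.81 under those 5 scalings in that order. The labels do not say whether replicates are separate cultures or animals, so the p-values measure the spread between these samples. The gene lists that follow hold 625 genes, of which 607 are in the table and 538 were tested; counts and medians are over tested members. A gene tested only because 1 group held it had to differ, so these counts describe the lists and are read against the shares called over all genes.

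**Figure D1:**
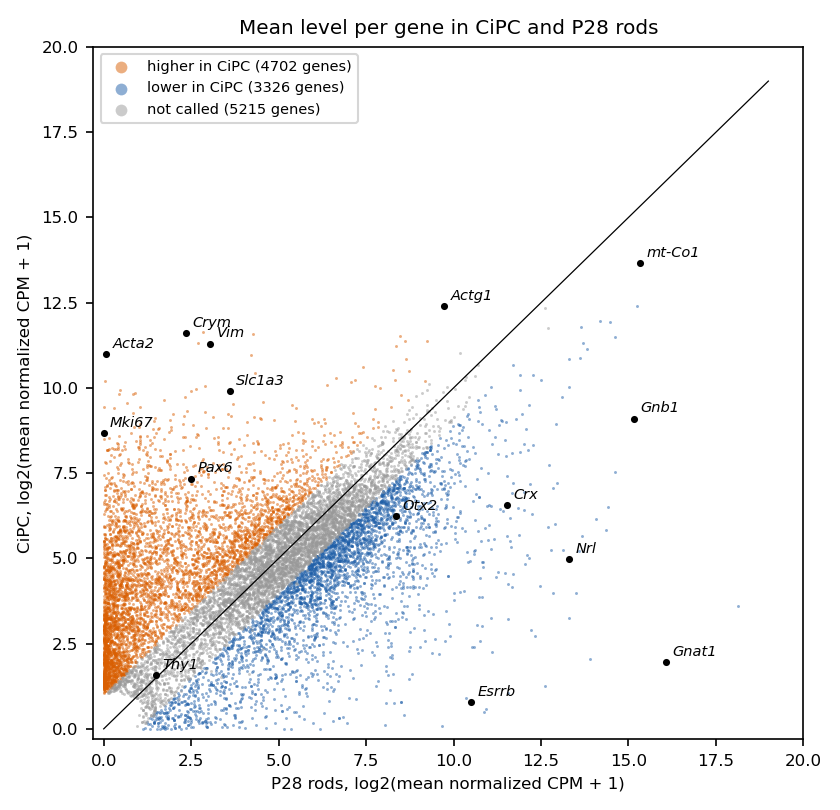
Mean expression of each of the 13243 genes tested in CiPC (vertical axis) against P28 rods (horizontal axis), both as log2(CPM + 1). Points are coloured by call; the 4702 higher genes lie above the diagonal and the 3326 lower genes below it, with Gnat1 at the far right near the floor of the CiPC axis.

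The 8 most abundant genes differed between the groups. In CiPC they were mt-Co1, mt-Cytb, Actg1, Eef1a1, mt-Co2, mt-Co3, mt-Nd1 and Eno1, that is mitochondrial transcripts, cytoplasmic actin, a translation elongation factor and a glycolytic enzyme. In P28 rods they included Gnat1 and Gnb1, subunits of transducin, Rbp3, the retinoid carrier, and mt-Co1, mt-Cytb, mt-Nd4 and mt-Co3 of the mitochondrial genome. The 34 phototransduction and disc genes together made up 0.217 to 0.232% of the CiPC libraries, against 24.1 to 29.9% of the P28 libraries.

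Transcription factors of rod identity were lower in CiPC in 13 of 15 cases, against 25.1% of all genes tested, with a median difference of -3.23 over the list and 0.16 over all genes. Nrl (chromosome 14, 55518978 to 55524981, minus strand), the leucine zipper factor whose promoter drives the strain's green fluorescent protein, had 30.9, 30.4 and 30.7 CPM in CiPC, against 7587, 11843, 11269 and 9743 CPM in P28 rods, a difference of -8.30 (SE 0.15) with an adjusted p of 5.79e-10 by limma with Benjamini-Hochberg adjustment. All CiPC libraries lay far below all P28 libraries, and the CiPC mean was 0.303% of the P28 mean. In bulk samples such as these, fewer cells that express a gene and less RNA of it per cell cannot be told apart. Fibroblasts before treatment had 0.237 ± 0.0582 CPM (SD, n = 3), so the sorted CiPC held more Nrl transcript than the starting cells, a difference that was not tested here. Crx (chromosome 7, 15865947 to 15879968, minus strand), the homeodomain partner of Nrl, had 97.8, 94.5 and 86.8 CPM in CiPC, against 3132, 2983, 2884 and 2768 CPM in P28 rods, a difference of -4.97 (SE 0.09). Nr2e3 (chromosome 9, 59942771 to 59960659, minus strand), the nuclear receptor that represses cone genes in rods, had 21.4, 20.5 and 20.4 CPM in CiPC, against 1843, 2665, 2602 and 2399 CPM in P28 rods, a difference of -6.76 (SE 0.13). None of the libraries of the groups overlapped for either gene.

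Further rod regulators separated into those that were nearly silent in CiPC and those that reached part of the P28 level. Esrrb, a nuclear receptor that supports rod survival (chromosome 12, 86361117 to 86521628, plus strand), had 0.679, 0.934 and 0.584 CPM in CiPC, against 1269.9, 1510.4, 1537 and 1523 CPM in P28 rods, a difference of -9.72 (SE 0.12). Mef2c, a MADS box factor that acts late in mouse rods, had 1.06, 1.28 and 1.2 CPM in CiPC, against 415, 264, 241 and 228 CPM in P28 rods, a difference of -7.00 (SE 0.20). In P5 rods both were already low, with 2.83 ± 0.371 CPM of Esrrb and 1.36 ± 0.163 CPM of Mef2c, so that both genes were high in P28 rods and low in the other groups named. Otx2, the homeodomain factor upstream of Crx, had 75.8, 73.5 and 72.9 CPM in CiPC, against 346, 346, 313 and 298 CPM in P28 rods, a difference of -2.12 (SE 0.09), and this call was lost under at least 1 other scaling. Fibroblasts before treatment had 0.228 ± 0.051 CPM of Otx2. Prdm1, a repressor of bipolar fate in newborn photoreceptors, had 9.12, 9.11 and 9.46 CPM in CiPC, against 18.7, 3.43, 2.42 and 3.92 CPM in P28 rods; P28 replicate 1 stood above CiPC and the other 3 below. It was not called (0.72, adjusted p = 0.228 by limma), and without P28 replicate 1 the difference was 1.28 and called. Of the 13 lower genes, 11 held under all 4 other scalings and 12 in the bridged contrast.

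Genes of the visual pigment and the transducin cascade fell without exception, 11 of 11, with a median of -8.34 against 0.16 over all genes tested. Gnat1 (chromosome 9, 107674474 to 107679712, minus strand), the alpha subunit of rod transducin, had 2.39, 3.43 and 2.84 CPM in CiPC, against 58361, 72969.9, 74643 and 70437 CPM in P28 rods, a difference of -14.12 (SE 0.13) with an adjusted p of 6.44e-11 by limma with Benjamini-Hochberg adjustment. Pde6a (chromosome 18, 61220315 to 61289924, plus strand), the alpha subunit of the rod phosphodiesterase, had 3.07, 3.79 and 2.63 CPM in CiPC, against 14122, 16152, 16245 and 14957 CPM in P28 rods, a difference of -11.86 (SE 0.12). Both genes were below 4 CPM in every CiPC library, far under every P28 library. Pde6b (chromosome 5, 108388391 to 108432397, plus strand), the beta subunit, had 15.2, 14.2 and 15.5 CPM in CiPC, against 10279, 12584, 12374 and 11564 CPM in P28 rods, a difference of -9.52 (SE 0.10). All 11 calls held under the 4 other scalings and in the bridged contrast. Fibroblasts before treatment had 0.0143 ± 0.0247 CPM of Pde6b.

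**Figure D2:**
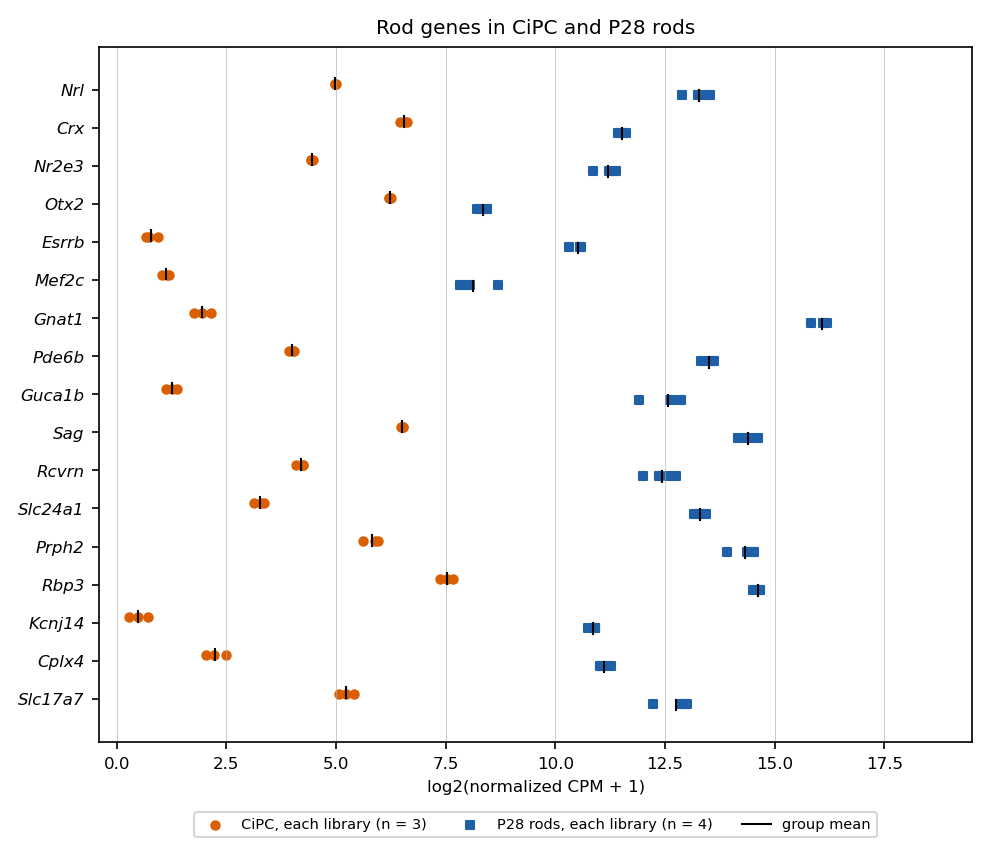
Level of 17 rod genes in each library as log2(normalized CPM + 1), with circles for the 3 CiPC libraries, squares below them for the 4 P28 libraries and a bar at each group mean. Every CiPC point lies left of every P28 point of the same gene, with the widest gap for Gnat1, a difference of -14.12.

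Of 11 genes that shut off the pigment or feed calcium back on the cascade, 10 fell, with a median of -8.24. Sag, rod arrestin, which caps the activated pigment, had 90.5, 88.8 and 91.8 CPM in CiPC, against 18468, 25057, 22601 and 20459.8 CPM in P28 rods, a difference of -7.88 (SE 0.12). Rcvrn (chromosome 11, 67695326 to 67703333, plus strand), recoverin, which restrains the kinase of the pigment in the dark, had 18, 17.9 and 16 CPM in CiPC, against 4079, 6916, 6199.7 and 5308 CPM in P28 rods, a difference of -8.24 (SE 0.17). CiPC lay far below every P28 library for both genes, and fibroblasts before treatment had 1.98 ± 0.522 CPM of Sag and 0.0997 ± 0.0681 CPM of Rcvrn. Guca1b and Guca1a, the calcium-sensing activators of guanylate cyclase, were lower still in CiPC. Guca1b (chromosome 17, 47385393 to 47392967, plus strand) had 1.39, 1.61 and 1.18 CPM in CiPC, against 3844, 7512, 7266 and 6302 CPM in P28 rods, a difference of -11.30 (SE 0.22). Guca1a had 0.571, 0.582 and 0.312 CPM in CiPC, against 1508, 2295, 2118 and 1831 CPM in P28 rods, a difference of -10.34 (SE 0.15). Gucy2f, one of the guanylate cyclases they regulate, averaged 0.861 ± 0.053 CPM in CiPC and 1315 ± 171 CPM in P28 rods, and Slc24a1, the exchanger that extrudes calcium from rod outer segments, averaged 8.59 ± 0.785 CPM in CiPC and 10055 ± 821 CPM in P28 rods (SD, n = 3 and 4). All 10 calls held under the 4 other scalings and in the bridged contrast.

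All 12 genes of disc and outer segment structure fell, with a median of -6.94. Prph2 (chromosome 17, 46910459 to 46924933, plus strand), the tetraspanin peripherin that shapes the disc rim, had 61.6, 58.4 and 48.3 CPM in CiPC, against 15447, 23605, 23319 and 21081 CPM in P28 rods, a difference of -8.50 (SE 0.17). Rom1, its partner in the rim, had 43.7, 34.1 and 34 CPM in CiPC, against 5672, 10738, 10472 and 9274 CPM in P28 rods, a difference of -7.85 (SE 0.22). CiPC lay far below every P28 library for both, and fibroblasts before treatment had 0.228 ± 0.106 CPM of Prph2 and 2.85 ± 0.50 CPM of Rom1. Fscn2, a retinal fascin that bundles actin, averaged 0.682 ± 0.412 CPM in CiPC and 316 ± 52.3 CPM in P28 rods. Abca4, which flips retinoid adducts out of the disc lumen, averaged 31.1 ± 3.46 CPM in CiPC and 4605 ± 497 CPM in P28 rods. The 12 calls held under all 4 other scalings and in the bridged contrast.

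Photoreceptor retinoid genes fell in 6 of 8 cases, with a median of -5.16. Rbp3 (chromosome 14, 33954003 to 33964216, plus strand) had 203, 185 and 164 CPM in CiPC, against 23363, 25927, 25902 and 24926 CPM in P28 rods, a difference of -7.08 (SE 0.11), with no overlap between the groups. Rdh12, an inner segment retinol dehydrogenase, had 12.8, 13.7 and 14.4 CPM in CiPC, against 1444, 1833, 1832 and 1689.5 CPM in P28 rods, a difference of -6.85 (SE 0.11). Rdh8, its outer segment counterpart, averaged 1.37 ± 0.344 CPM in CiPC and 221 ± 14.2 CPM in P28 rods. Rdh11, a broadly expressed relative, averaged 61 ± 3.46 CPM in CiPC and 91.3 ± 13.3 CPM in P28 rods, a difference of -0.56 that stayed under the size threshold. Of the 6 lower calls, 5 held under all 4 other scalings and 6 in the bridged contrast.

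Channels, pumps and ribbon synapse genes followed. All 11 channel and pump genes fell, with a median of -5.49. Kcnj14, an inward rectifier (chromosome 7, 45816460 to 45824782, minus strand), had 0.395, 0.213 and 0.647 CPM in CiPC, against 1710.1, 1923, 1929 and 1917 CPM in P28 rods, a difference of -10.38 (SE 0.12), and CiPC stood below 1 CPM throughout. Kcnv2, a silent subunit that shapes the photoreceptor potassium current, had 3.84, 4.13 and 4.85 CPM in CiPC, against 1760.4, 1423, 1463 and 1451 CPM in P28 rods, a difference of -8.18 (SE 0.11). Every CiPC library lay below every P28 library for both genes. At the ribbon synapse 16 of 19 genes fell, with a median of -4.40. Cplx4, a complexin of ribbon synapses, had 3.65, 3.11 and 4.59 CPM in CiPC, against 2099, 2457, 2226 and 2062 CPM in P28 rods, a difference of -8.86 (SE 0.12). Slc17a7, the vesicular glutamate transporter of photoreceptors, had 41.5, 36.2 and 32.7 CPM in CiPC, against 4771, 7980.0, 8218 and 7448 CPM in P28 rods, a difference of -7.53 (SE 0.19). CiPC libraries lay below P28 libraries for both. Cabp4, which tunes the synaptic calcium channel, averaged 0.728 ± 0.0882 CPM in CiPC and 359 ± 41.2 CPM in P28 rods, and Unc119, a lipid-binding trafficking protein, averaged 63.5 ± 3.65 CPM in CiPC and 7666 ± 1148 CPM in P28 rods. The 3 members not called were Ctbp2, whose isoform RIBEYE builds the ribbon and cannot be told from the CtBP2 isoform in a value per gene (192 ± 11.1 CPM in CiPC and 342 ± 15.9 CPM in P28 rods, difference -0.83), Bsn (10.2 ± 1.34 CPM in CiPC and 13.1 ± 11 CPM in P28 rods) and Lman1 (322 ± 7.24 CPM in CiPC and 359 ± 34.8 CPM in P28 rods). Of the synapse calls 15 held under all 4 other scalings and 16 in the bridged contrast; all 11 channel calls held in both.

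Cilium and transport genes were less uniform, with 19 lower, 2 higher and 3 not called of 24, and a median of -1.88. Subunits of the BBSome, the coat complex that carries cargo in cilia, fell together. Bbs1 (chromosome 19, 4886878 to 4906628, minus strand) had 17.9, 15.9 and 15.9 CPM in CiPC, against 329, 368, 368 and 366 CPM in P28 rods, Bbs4 averaged 21.4 ± 1.37 CPM in CiPC and 522 ± 70.3 CPM in P28 rods, Bbs7 averaged 22.9 ± 1.83 CPM in CiPC and 661 ± 66.3 CPM in P28 rods and Bbs9 averaged 16.9 ± 0.613 CPM in CiPC and 407 ± 6.5 CPM in P28 rods. The differences of these 4 ran from -4.79 to -4.35. The higher genes were Tulp3, an adaptor for receptors entering primary cilia, with 262, 259.5 and 260.3 CPM in CiPC, against 1.87, 1.75, 1.2 and 0.664 CPM in P28 rods, and Mertk, a phagocytic receptor tyrosine kinase that pigment epithelium uses on outer segments, with 21.9, 22.3 and 21.5 CPM in CiPC, against 0.247, 0.59, 1.17 and 1.17 CPM in P28 rods. P28 rods held under 2 CPM of both. Of the calls, 11 lower and 2 higher held under all 4 other scalings, 15 and 2 in the bridged contrast.

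Genes for very long chain polyunsaturated lipids, which fill disc membranes, split in direction, with 5 lower, 3 higher and 1 not called of 9. Elovl4 (chromosome 9, 83778692 to 83806277, minus strand), the elongase that makes the longest chains in photoreceptors, had 43.1, 45.3 and 50.5 CPM in CiPC, against 2249, 2430.0, 2295 and 2182 CPM in P28 rods, a difference of -5.60 (SE 0.09). Agpat3 averaged 145 ± 28.2 CPM in CiPC and 4644 ± 654 CPM in P28 rods, and Acsl6 averaged 24.7 ± 1.02 CPM in CiPC and 649 ± 51.3 CPM in P28 rods; both load docosahexaenoic acid into lipids. Adipor1, a receptor needed for that acid in mouse photoreceptors, averaged 121 ± 1.31 CPM in CiPC and 3251 ± 562 CPM in P28 rods. In the other direction went a transporter and the desaturases. Mfsd2a, the transporter of lysolipids carrying docosahexaenoic acid, had 98.3, 92.2 and 89.9 CPM in CiPC, against 0.067, 0.202, 0.20 and 0 CPM in P28 rods, a difference of 6.41 (SE 0.13). Fads1 had 191, 191 and 202 CPM in CiPC, against 11.6, 9.84, 10.1 and 9.82 CPM in P28 rods and Fads2 averaged 103 ± 4.1 CPM in CiPC and 23.7 ± 4.33 CPM in P28 rods; they are the delta-5 and delta-6 desaturases. All 8 calls held under the 4 other scalings and in the bridged contrast.

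**Figure D3:**
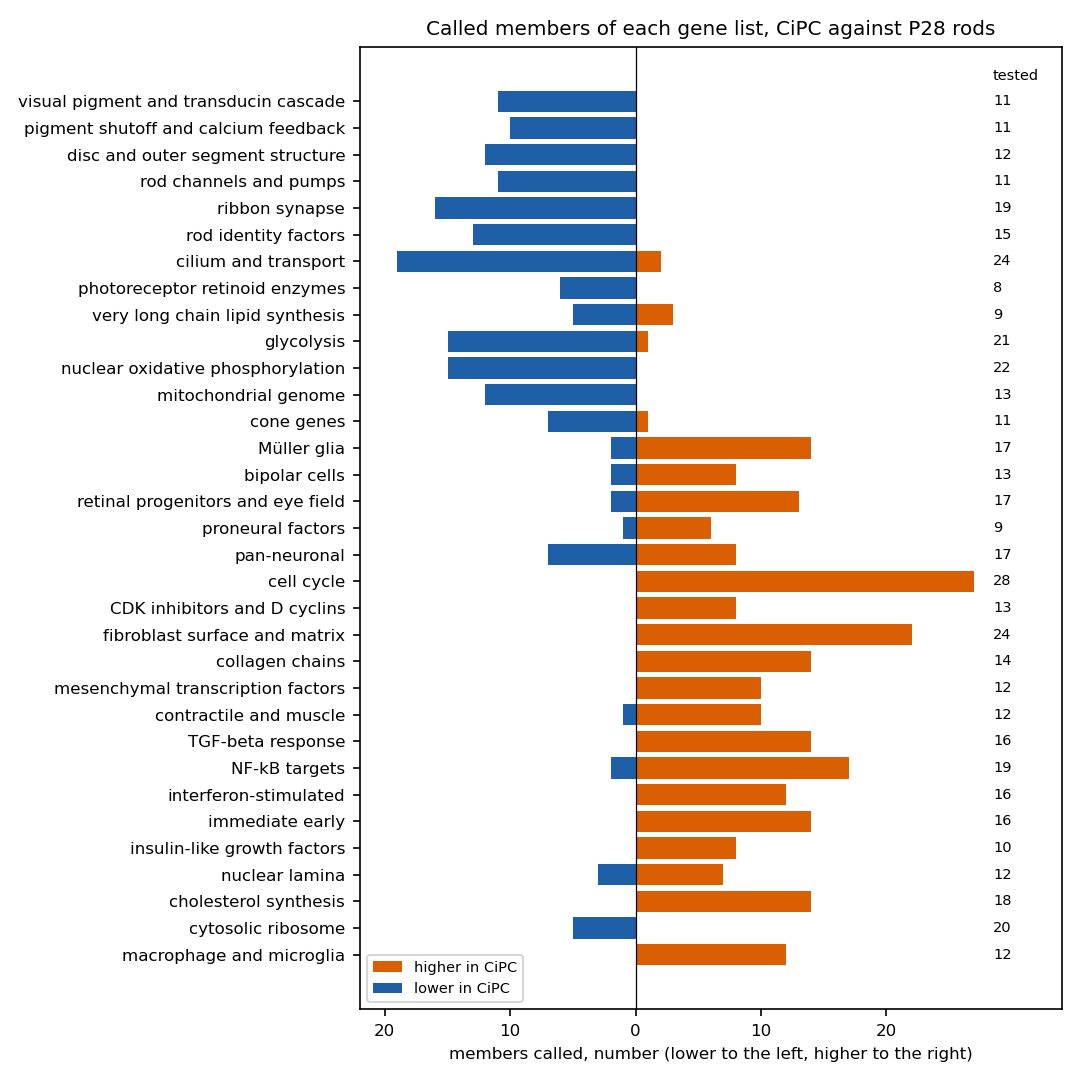
Number of members of each gene list called higher in CiPC (orange bars, to the right) and lower in CiPC (blue bars, to the left) against P28 rods, with the number tested at the right edge. Lists of the rod programme extend left, such as 11 of 11 cascade genes and 12 of 12 disc genes, and lists of division, matrix and glia extend right, such as 27 of 28 cell cycle genes.

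Energy genes were mostly lower in CiPC, and much of this depended on the scaling. Of 21 glycolytic genes, 15 were lower and 1 higher, with a median of -2.51. Hk2 (chromosome 6, 82725025 to 82774454, minus strand), the hexokinase that marks the aerobic glycolysis of mouse photoreceptors, had 17.5, 17.8 and 25.8 CPM in CiPC, against 1559.9, 1906, 1848 and 1560.4 CPM in P28 rods, a difference of -6.35 (SE 0.15). Hk1, the housekeeping hexokinase, averaged 147 ± 7.15 CPM in CiPC and 3333 ± 516 CPM in P28 rods, Aldoc averaged 22.4 ± 3.0 CPM in CiPC and 415 ± 30.4 CPM in P28 rods and Pfkfb2 averaged 20.6 ± 1.98 CPM in CiPC and 604 ± 56.7 CPM in P28 rods. Pfkfb3, the paralog of Pfkfb2 that is induced in dividing cells, went the other way with 44.9, 43.1 and 44.7 CPM in CiPC, against 4.7, 2.56, 2.81 and 4.55 CPM in P28 rods, a difference of 3.31 (SE 0.20). Of the 15 lower genes 9 held under all 4 other scalings and 14 in the bridged contrast. Nuclear genes of oxidative phosphorylation were lower in 15 of 22 cases with a median of -1.41, of which 2 held under all scalings and 15 in the bridged contrast; one of the 2 was Ndufa4, with 154 ± 18.2 CPM in CiPC and 1154 ± 218 CPM in P28 rods. Of the 13 mitochondrial genome genes, 12 were lower with a median of -2.52, and 1 held under all scalings and 9 in the bridged contrast. mt-Cytb averaged 5449.7 ± 417 CPM in CiPC and 38645 ± 6128 CPM in P28 rods, a difference of -2.81 as deposited that turned to 0.48 after quantile normalization. Mitochondrial transcripts made up 4.79 to 5.34% of CiPC libraries and 8.95 to 11.4% of P28 libraries.

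Against P5 rods, glycolytic and mitochondrial genome genes did not follow the rod programme. CiPC and P5 rods came from the same deposit; 3365 of 13546 genes tested (24.8%) were higher in CiPC and 2500 (18.5%) lower. The comparisons with P28 and with P5 rods share the CiPC libraries, and their values are given side by side. Transducin cascade genes were lower than in P28 rods in 11 of 11 cases (median -8.34) and than in P5 rods in 10 of 11 (median -3.17). Disc genes were lower in 12 of 12 (median -6.94) and in 12 of 12 (median -3.87), and rod identity factors in 13 of 15 (median -3.23) and in 13 of 15 (median -3.01). Glycolytic genes, lower than in P28 rods in 15 of 21 cases, were higher than in P5 rods in 9 and lower in 4 (median 0.45). Mitochondrial genome genes, 12 of 13 lower than in P28 rods, were higher than in P5 rods in 12 (median 1.25). P5 rods stood apart from rods of near age in these genes, since 11 of the 13 were called between P5 rods and the mean of P4 and P6 rods. For mt-Cytb the difference was 1.46 for CiPC minus P5 rods and -1.24 for P5 rods minus that mean, and for mt-Co1 it was 1.25 and -1.17. Mitochondrial transcripts made up 1.96 to 2.57% of P5 libraries, 4.45 to 5.49% of P4 libraries and 4.37 to 8.91% of P6 libraries. Nuclear genes of oxidative phosphorylation, lower than in P28 rods in 15 of 22 cases, were higher than in P5 rods in none and lower in 1 (median -0.11). For single factors the difference CiPC minus P5 rods was -4.82 for Nrl and -4.15 for Crx, where CiPC minus P28 rods was -8.30 and -4.97.

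Against P14 rods, from the earlier deposit, 3793 of 13427 genes tested (28.2%) were higher in CiPC and 3029 (22.6%) lower. The step between deposits was itself visible at a near age, since P5 rods had 1122 of 13652 genes tested (8.22%) higher and 1788 (13.1%) lower than the mean of P4 and P6 rods. The mean correlation with CiPC libraries across genes was 0.825 for fibroblasts before treatment, 0.823 for P2 rods, 0.794 for P5 rods, 0.742 for P10 rods, 0.697 for P14 rods and 0.661 for P28 rods. Correlations with CiPC thus ran lower for the older rods; the P5 libraries share their deposit with CiPC and the P2, P10, P14 and P28 libraries do not.

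Median levels of whole lists were also set side by side across the cultures and the rods. The medians here are over all members in the table, on log2(mean CPM + 1), and were not tested. For the transducin cascade the median level was 0.58 in fibroblasts, 0.40 on culture day 8 and 4.00 in CiPC; in rods it was 6.56 at P2, 7.32 at P5, 11.86 at P10 and 13.58 at P28. For rod identity factors it was 0.48 in fibroblasts, 0.82 on day 8 and 4.98 in CiPC, and 9.11 at P2, 9.07 at P5 and 8.64 at P28 in rods. The median of the identity factors was thus at a like level in rods of these ages, whereas the cascade median was highest at P28. Single identity factors did not stay level. Nrl averaged 690 CPM at P2, 896 CPM at P5 and 10111 CPM at P28. Otx2 averaged 1066, 605 and 326 CPM at those ages. For collagen chains the median level was 9.71 in fibroblasts, 10.54 on day 8 and 4.90 in CiPC, and 0.32 in P28 rods. For Müller glia it was 2.58 in fibroblasts, 4.49 on day 8 and 8.04 in CiPC. In rods the Müller glia median was 6.50 at P2, 4.42 at P5, 6.91 at P6, 6.15 at P10 and 3.65 at P28.

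**Figure D4:**
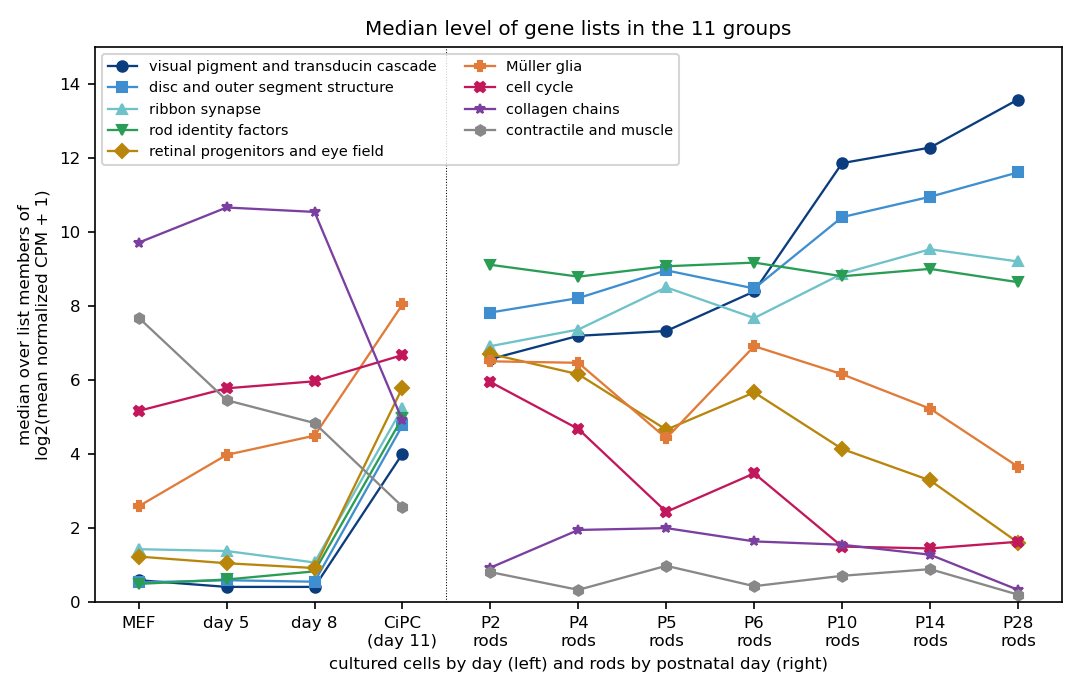
Median over the members of 9 gene lists of log2(mean normalized CPM + 1), for cultured cells by day (left of the dotted line, fibroblasts to CiPC on day 11) and rods by postnatal day (right). In CiPC the rod lists sit at 4.00 to 5.24, above the earlier cultures and below the P28 rods, and the cell cycle, collagen and contractile lists sit above the P28 rods.

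Cone genes were mostly lower too, 7 of 11, with a median of -1.50. Opn1sw, the short wavelength opsin, had 1.86, 1.89 and 2.7 CPM in CiPC, against 33.5, 39.9, 43.5 and 45.9 CPM in P28 rods, a difference of -3.73 (SE 0.16); in the bridged contrast the difference was 0.85. Opn1mw averaged 0.0346 ± 0.060 CPM in CiPC and 9.4 ± 1.17 CPM in P28 rods and Arr3, cone arrestin, averaged 0.318 ± 0.109 CPM in CiPC and 12.3 ± 0.656 CPM in P28 rods. Thrb, the thyroid hormone receptor of cones, had 8.23, 7.04 and 10.5 CPM in CiPC, against 177, 76.4, 80.1 and 87.5 CPM in P28 rods, and P28 replicate 1 was the highest by far. Gnb3, a beta subunit of cone transducin that bipolar cells also use, was the 1 higher gene with 214, 205 and 192 CPM in CiPC, against 45.6, 61.1, 59 and 55 CPM in P28 rods, a difference of 1.87 (SE 0.12) that did not hold in the bridged contrast. Under all 4 other scalings 5 of the 7 lower calls held, and in the bridged contrast 4 did. The cone list summed to 226 to 245 CPM in CiPC and 264 to 324 CPM in P28 rods. Gnb3 made up most of the CiPC sum, with 204 ± 11.1 CPM in CiPC and 55.2 ± 6.86 CPM in P28 rods.

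Genes of Müller glia, the radial support cells of the retina, were higher in CiPC in 14 of 17 cases, with a median of 4.03. Slc1a3 (chromosome 15, 8634124 to 8710764, minus strand), the glial glutamate transporter, had 918, 939 and 1008 CPM in CiPC, against 7.47, 16.2, 11.9 and 9.33 CPM in P28 rods, a difference of 6.34 (SE 0.22). Rlbp1 (chromosome 7, 79374870 to 79387048, minus strand), the retinaldehyde-binding protein of glia and pigment epithelium, had 258, 258 and 273 CPM in CiPC, against 14.8, 37.7, 32.8 and 32.1 CPM in P28 rods, a difference of 3.20 (SE 0.28). All CiPC libraries exceeded all P28 libraries, and fibroblasts before treatment had 0.247 ± 0.214 CPM of Rlbp1 and 5.16 ± 1.73 CPM of Slc1a3. Crym (chromosome 7, 120186380 to 120202111, minus strand), a thyroid hormone-binding protein, had 3198, 3069.5 and 3072 CPM in CiPC, against 1.67, 4.97, 5.82 and 3.96 CPM in P28 rods, a difference of 9.34 (SE 0.28) and one of the 12 largest. Glul, glutamine synthetase, averaged 464 ± 3.55 CPM in CiPC and 230.4 ± 77.6 CPM in P28 rods, and Kcnj10, the glial potassium channel, averaged 108 ± 2.69 CPM in CiPC and 4.24 ± 1.13 CPM in P28 rods. Aqp4, the water channel of mature Müller endfeet, was lower with 0.528, 0.343 and 0.342 CPM in CiPC, against 3.03, 6.4, 6.66 and 6.34 CPM in P28 rods, as was Abca8a with 1.07 ± 0.484 CPM in CiPC and 11.6 ± 3.83 CPM in P28 rods. Vim, which the list shares with fibroblasts, had 2393, 2504 and 2648 CPM in CiPC, against 3.08, 7.48, 12.4 and 6.2 CPM in P28 rods. The list, Crym and Vim included, summed to 10260 to 10640 CPM in CiPC and 843 to 1277 CPM in P28 rods. Younger rods held more of the list than P28 rods. As log2(mean CPM + 1), its median level was 8.04 in CiPC, and 6.50 at P2, 4.42 at P5 and 3.65 at P28 in rods. Against P5 rods 15 members were higher and none lower of 16, with a median of 3.79. Between P5 rods and the mean of P4 and P6 rods 14 members were called. Of the higher calls, 14 held under all 4 other scalings and 13 in the bridged contrast.

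Genes of retinal progenitors and the eye field were higher in 13 of 17 cases, with a median of 4.42. Against P5 rods 9 were higher and 3 lower of 17, with a median of 2.01. Young rods also held these genes. As log2(mean CPM + 1), the median level of the list was 1.22 in fibroblasts before treatment and 5.79 in CiPC. In rods it was 6.70 at P2, 4.65 at P5 and 1.60 at P28. Pax6 (chromosome 2, 105668900 to 105697364, plus strand), the eye field homeobox factor, had 164, 164 and 155 CPM in CiPC, against 2.58, 6.71, 6.0 and 3.37 CPM in P28 rods, a difference of 4.91 (SE 0.26). Nes, the intermediate filament nestin, had 386, 395 and 376 CPM in CiPC, against 0.512, 0.445, 0.293 and 0.119 CPM in P28 rods, a difference of 8.18 (SE 0.14). Sox2 averaged 34.8 ± 1.24 CPM in CiPC and 0.683 ± 0.173 CPM in P28 rods. For these genes P28 rods held under 7 CPM. Ccnd1, the progenitor cyclin, averaged 843 ± 57.1 CPM in CiPC and 3.98 ± 1.57 CPM in P28 rods, Hes1 averaged 73.9 ± 5.8 CPM in CiPC and 0.565 ± 0.358 CPM in P28 rods and Notch1 averaged 257 ± 57.4 CPM in CiPC and 2.17 ± 1.2 CPM in P28 rods, all of the Notch and cycling programme of progenitors. Fibroblasts before treatment already had 589 ± 15.7 CPM of Nes, above the CiPC mean of 386 CPM. They also had 295.8 ± 10.85 CPM of Ccnd1, 35.85 ± 2.94 CPM of Hes1 and 45.1 ± 2.26 CPM of Notch1, but 1.06 ± 0.128 CPM of Pax6. Hes5, a Notch target of retinal progenitors, had 11.3, 8.89 and 5.31 CPM in CiPC, against 2.64, 3.89, 3.79 and 4.26 CPM in P28 rods and missed the size threshold at 0.99; it was called without CiPC replicate 3 (1.26) or without P28 replicate 2 (1.02), 3 (1.01) or 4 (1.06). Meis2 (14.4 ± 1.83 CPM in CiPC and 165 ± 6.79 CPM in P28 rods) and Rax (29.7 ± 9.68 CPM in CiPC and 119 ± 36.4 CPM in P28 rods), both eye field factors, were lower, and the Rax call did not hold in the bridged contrast. Of the 13 higher calls, 11 held under all 4 other scalings and 13 in the bridged contrast; of the 2 lower calls, 1 held in each.

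Proneural factors were higher in 6 of 9 cases, with a median of 3.35. Sox11 had 33, 36.2 and 34.8 CPM in CiPC, against 0, 0.14, 0.138 and 0.0657 CPM in P28 rods, Sox4 averaged 72 ± 1.68 CPM in CiPC and 3.17 ± 0.15 CPM in P28 rods and Neurod4 averaged 66.2 ± 3.83 CPM in CiPC and 4.99 ± 0.908 CPM in P28 rods, factors of newborn neurons. Neurod1, which rods keep for life, was lower with 42.6, 40.0 and 35.6 CPM in CiPC, against 634, 292, 303 and 358 CPM in P28 rods, a difference of -3.23 (SE 0.25); P28 replicate 1 was the highest. The 6 higher calls and the 1 lower call held in both checks. Against P5 rods 1 member was higher and 4 lower of 11, median -0.81. Pan-neuronal genes divided, with 8 higher and 7 lower of 17, against 35.5% higher and 25.1% lower over all genes tested. This balance turned with the scaling, since 4 of the 8 higher and 6 of the 7 lower calls held under all 4 other scalings, and quantile normalization gave 4 higher and 8 lower with a median of -0.99. In the bridged contrast 7 and 6 held. Stmn2, a tubulin regulator of growing neurites, had 147, 153 and 168 CPM in CiPC, against 2.93, 1.07, 4.87 and 1.02 CPM in P28 rods, and Gap43 averaged 14.9 ± 0.557 CPM in CiPC and 0.93 ± 0.548 CPM in P28 rods. Snap25, a SNARE protein of synaptic release, had 59.3, 57.5 and 58.6 CPM in CiPC, against 1731, 2101, 1953 and 1781 CPM in P28 rods, a difference of -4.99 (SE 0.10), and Syt1, the calcium sensor of release, averaged 181 ± 10.6 CPM in CiPC and 2036 ± 257 CPM in P28 rods. Both release genes lay below P28 rods in every CiPC library.

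Of 13 bipolar genes tested, 8 were higher and 2 lower. Grm6, through which ON bipolar cells sense photoreceptor glutamate, had 34.4, 36.6 and 35.9 CPM in CiPC, against 1.46, 2.73, 2.37 and 3.29 CPM in P28 rods, a difference of 3.43 (SE 0.20). P5 rods held more of it, 215 ± 2.08 CPM, and the bridged difference of Grm6 was -1.42. Of the 8 higher calls, 6 held under all 4 other scalings and 2 in the bridged contrast. Prkca, protein kinase C alpha, was lower with 66.2, 55.7 and 51.4 CPM in CiPC, against 393, 253, 235 and 255 CPM in P28 rods. The list summed to 447 to 515 CPM in CiPC and 573 to 760 CPM in P28 rods. Most of the P28 sum was Otx2 (326 ± 24.3 CPM) and Prkca (284 ± 73.5 CPM). Otx2, also on the list of rod identity factors, was the other lower member, with 74.1 ± 1.56 CPM in CiPC. Grm6, Lhx4 and Pcp2 averaged 35.6, 22.6 and 18.3 CPM in CiPC and 2.465, 1.11 and 1.33 CPM in P28 rods. Amacrine, horizontal and ganglion genes were higher in 8 and lower in 2 of 13, with 3 higher calls held under all 4 other scalings and 8 in the bridged contrast. Prox1, a homeobox factor of horizontal and AII amacrine cells, had 160.4, 169 and 163 CPM in CiPC, against 3.02, 4.53, 4.11 and 4.26 CPM in P28 rods. Young rods also held Prox1, with 213 ± 5.59 CPM in P5 rods and a mean of 81.05 CPM in P2 rods. Against P5 rods 4 members of the list were higher and 2 lower of 13, with a median of 0.10.

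**Figure D5:**
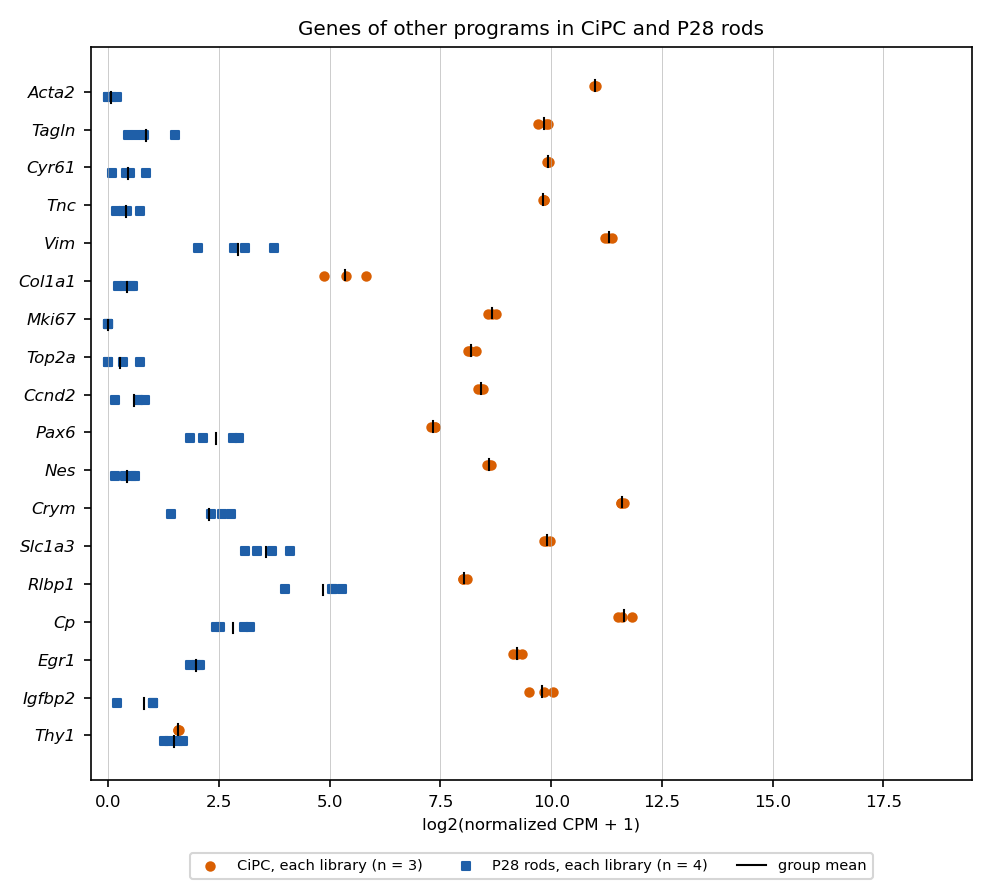
Level of 18 genes of contraction, matrix, division, progenitors, glia and signalling in each library as log2(normalized CPM + 1), with circles for the 3 CiPC libraries, squares below them for the 4 P28 libraries and a bar at each group mean. The CiPC points lie right of the P28 points for 17 genes, with the widest gap for Acta2, and the libraries overlap for Thy1.

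Of 28 cell cycle genes 27 were higher and none lower in CiPC, against 35.5% higher over all genes tested, with a median of 5.17. Mki67 (chromosome 7, 135689784 to 135716361, minus strand), the proliferation antigen, had 380.3, 407 and 434 CPM in CiPC and was listed at 0 in all 4 P28 libraries. Top2a, the mitotic topoisomerase, had 279, 285 and 314 CPM in CiPC, against 0.64, 0, 0.264 and 0 CPM in P28 rods, a difference of 7.93 (SE 0.20). Cdk1, the mitotic kinase, had 110.5, 118 and 128 CPM in CiPC, against 0.0548, 0.228, 0 and 0.943 CPM in P28 rods, a difference of 6.57 (SE 0.23). P28 libraries were at or near 0 throughout. The exception was Pcna, the replication clamp that also serves in repair, with 181, 183 and 194 CPM in CiPC, against 196, 234, 224 and 199 CPM in P28 rods, a difference of -0.19 and no call. All 27 calls held under the 4 other scalings and in the bridged contrast. Against P5 rods all 28 members were higher, with a median of 4.06. Still younger rods held more of these genes. As log2(mean CPM + 1), the median level of the cell cycle list was 6.67 in CiPC. In rods it was 5.94 at P2, 4.67 at P4, 2.43 at P5 and 1.62 at P28. Mki67 averaged 474.5 CPM in P2 rods and 4.48 CPM in P5 rods. Among cell cycle inhibitors and their partners 8 of 13 were higher and none lower; 8 held under all 4 other scalings and 7 in the bridged contrast. Ccnd2 had 327, 341 and 351 CPM in CiPC, against 0.118, 0.775, 0.623 and 0.591 CPM in P28 rods, a difference of 7.82 (SE 0.18), and Cdk6 averaged 147 ± 1.28 CPM in CiPC and 1.58 ± 1.63 CPM in P28 rods. Cdkn1a, the inhibitor p21, had 75, 75.7 and 75 CPM in CiPC, against 0, 0.442, 0.0581 and 0.161 CPM in P28 rods, a difference of 6.05 (SE 0.16) that did not hold in the bridged contrast, and Cdkn1b, the inhibitor p27, averaged 102 ± 6.19 CPM in CiPC and 94.5 ± 12.5 CPM in P28 rods and was not called.

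Matrix, contractile and mesenchymal genes were higher in CiPC. All 14 collagen chains tested were higher, with a median of 4.85, and all held in both checks. Col4a1 (chromosome 8, 11198423 to 11312826, minus strand), of basement membrane, had 537, 461 and 361 CPM in CiPC, against 3.35, 2.54, 1.81 and 0.276 CPM in P28 rods, a difference of 7.36 (SE 0.38). Col1a1, the chain of fibrillar collagen that fibroblasts make, averaged 41.2 ± 13.6 CPM in CiPC and 0.344 ± 0.14 CPM in P28 rods, against 4545 ± 622 CPM in fibroblasts before treatment. Of 24 fibroblast genes 22 were higher, with a median of 3.70; 20 held under all 4 other scalings and 22 in the bridged contrast. Tnc (chromosome 4, 63959785 to 64047015, minus strand), tenascin C, had 916, 894 and 910.2 CPM in CiPC, against 0.133, 0.27, 0.334 and 0.634 CPM in P28 rods, a difference of 9.41 (SE 0.15), and Thbs1, thrombospondin, averaged 372 ± 3.94 CPM in CiPC and 0.108 ± 0.0762 CPM in P28 rods. Thy1, a fibroblast surface marker, had 2.02, 2.0 and 1.97 CPM in CiPC, against 1.6, 2.2, 2.0 and 1.4 CPM in P28 rods, with overlapping libraries and a difference of 0.11 (SE 0.13), and Mmp2, a gelatinase, averaged 13.8 ± 1.38 CPM in CiPC and 14.4 ± 2.18 CPM in P28 rods; neither was called. Fibroblasts before treatment had 121 ± 4.43 CPM of Thy1 and 606 ± 7.66 CPM of Mmp2. The fibroblast list summed to 8060 to 8462 CPM in CiPC and 34.8 to 58.5 CPM in P28 rods.

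Contractile genes held the largest single increase of those named here. Acta2 (chromosome 19, 34241090 to 34255590, minus strand), smooth muscle actin, had 2056, 2020.5 and 2012 CPM in CiPC, against 0.0658, 0.139, 0 and 0 CPM in P28 rods, a difference of 10.92 (SE 0.11) with an adjusted p of 6.44e-11 by limma with Benjamini-Hochberg adjustment. Tagln, transgelin, had 977, 939 and 826 CPM in CiPC, against 1.83, 0.55, 0.752 and 0.358 CPM in P28 rods, a difference of 8.99 (SE 0.24). Myl9, whose promoter is shown above, had 354, 326 and 291 CPM in CiPC, against 0, 0.622, 0.606 and 0.0885 CPM in P28 rods, a difference of 7.96 (SE 0.21). Every CiPC library lay far above every P28 library for the 3 genes. Of 12 members 10 were higher, and Mylk, myosin light chain kinase, was lower with 14.7, 12.6 and 14.6 CPM in CiPC, against 431, 448, 422 and 384 CPM in P28 rods, a difference of -4.82 (SE 0.10). Of the 10 higher contractile calls 8 held under all 4 other scalings and 9 in the bridged contrast. TGF-beta response genes were higher in 14 of 16 cases, with a median of 3.09; 12 held under all 4 other scalings and 14 in the bridged contrast. Cyr61, a matrix-bound signalling protein, had 965, 973 and 990.4 CPM in CiPC, against 0.0645, 0.801, 0.395 and 0.311 CPM in P28 rods, a difference of 9.48 (SE 0.18). Mesenchymal transcription factors were higher in 10 of 12 cases, with a median of 1.95. Only 6 of these held under all 4 other scalings and 8 in the bridged contrast, and quantile normalization gave 6 higher with a median of 1.01. Twist1 had 20.6, 20.5 and 19.1 CPM in CiPC and was listed at 0 in all 4 P28 libraries. Zeb1 averaged 26.8 ± 1.95 CPM in CiPC and 19.7 ± 14.4 CPM in P28 rods and was not called, though it was (1.06) without P28 replicate 1. Of the 24 Hox genes in the table, which mark position along the trunk, none reached the level for testing and 16 were listed at 0 in all 4 P28 libraries.

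Several of the 12 largest increases lay outside the lists above. Fbn2, a microfibril protein (chromosome 18, 58008623 to 58210487, minus strand), had 1269.9, 1208 and 1071 CPM in CiPC, against 0, 0.0662, 0.0656 and 0 CPM in P28 rods, a difference of 10.16 (SE 0.12). Npvf, a precursor of RFamide neuropeptides (chromosome 6, 50650672 to 50654439, minus strand), had 672, 686 and 713 CPM in CiPC and was listed at 0 in all 4 P28 libraries; fibroblasts before treatment had 0.0699 ± 0.0892 CPM of it and P5 rods 0.804 ± 0.0732 CPM. CiPC thus stood above the 3 other groups named here. Prss23, a secreted serine protease, averaged 677 ± 25.5 CPM in CiPC and 0.228 ± 0.143 CPM in P28 rods, and S1pr3, a receptor for sphingosine 1-phosphate, averaged 747 ± 27.5 CPM in CiPC and 0.576 ± 0.343 CPM in P28 rods. Outside the lists on the lower side were Vtn, vitronectin, with 1.44, 1.09 and 0.706 CPM in CiPC, against 2265, 3266, 3239 and 3180.0 CPM in P28 rods, a difference of -10.49 (SE 0.17), Pdzph1 with 0.127, 0.0455 and 0.0227 CPM in CiPC, against 732, 844, 882 and 813 CPM in P28 rods, and Reep6, a rod endoplasmic reticulum protein, with 6.08, 5.48 and 5.29 CPM in CiPC, against 3899, 5878, 5629 and 5031 CPM in P28 rods.

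Inflammatory and acute phase genes were higher in most cases. Of 8 acute phase genes tested 7 were higher, with a median of 3.16, and 5 held in each check. Lcn2 (chromosome 2, 32384633 to 32388252, minus strand), an iron-withholding protein of reactive glia and epithelia, had 399, 370.3 and 359 CPM in CiPC, against 7.57, 8.89, 7.86 and 9.85 CPM in P28 rods, a difference of 5.31 (SE 0.12). Cp, ceruloplasmin, had 2925, 3109.6 and 3599 CPM in CiPC, against 4.4, 8.26, 7.43 and 4.71 CPM in P28 rods, a difference of 8.84 (SE 0.20). Fibroblasts before treatment had 0.069 ± 0.0644 CPM of Lcn2 and 7.06 ± 0.602 CPM of Cp. Of 19 NF-kB targets 17 were higher, with a median of 2.50; 13 held under all 4 other scalings and 15 in the bridged contrast. Ccl2, the monocyte chemokine, had 95.3, 97.8 and 107 CPM in CiPC and was listed at 0 in all 4 P28 libraries, and Ptgs2, an inducible cyclooxygenase, had 56.1, 57.2 and 63.8 CPM in CiPC and was listed at 0 in all 4 P28 libraries. Tnfaip3, the feedback deubiquitinase A20, was lower with 29.3, 29.7 and 30.9 CPM in CiPC, against 659, 364, 359 and 414 CPM in P28 rods, a difference of -3.81 (SE 0.20), as was Sod2, mitochondrial superoxide dismutase, with 54.1 ± 1.97 CPM in CiPC and 231 ± 17.7 CPM in P28 rods. Of 16 interferon-stimulated genes 12 were higher, with a median of 2.49, of which 9 held under all 4 other scalings and 8 in the bridged contrast; Ifitm3 averaged 148 ± 6.37 CPM in CiPC and 0.104 ± 0.135 CPM in P28 rods.

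Immediate early genes, which cells induce within minutes of a stimulus, were higher in 14 of 16 cases, with a median of 2.92. Egr1 had 644, 602 and 559 CPM in CiPC, against 2.97, 3.23, 3.12 and 2.59 CPM in P28 rods, a difference of 7.24 (SE 0.11), and Fos had 415, 398 and 373 CPM in CiPC, against 6.33, 5.22, 4.12 and 6.16 CPM in P28 rods, a difference of 5.95 (SE 0.15). CiPC were above P28 rods in every library for both genes, and 13 of the 14 calls held in each check. Young rods also held these genes, with 359.8 CPM of Egr1 and 479.8 CPM of Fos in P2 rods. As log2(mean CPM + 1), the median level of the list was 4.64 in fibroblasts and 5.98 in CiPC. In rods it was 5.48 at P2, 3.75 at P5 and 2.31 at P28. Against P5 rods 10 members were higher and 1 lower of 16, with a median of 2.73. Genes of the insulin-like growth factor system were higher in 8 of 10 cases, with a median of 4.22. Igfbp2 (chromosome 1, 72824503 to 72852474, plus strand), a binding protein, had 1059, 909.8 and 721 CPM in CiPC, against 0.148, 1.02, 1.0 and 1.03 CPM in P28 rods, a difference of 8.98 (SE 0.23). Igfbp3 averaged 289.7 ± 5.96 CPM in CiPC and 0.0785 ± 0.117 CPM in P28 rods, and Igf1r, the receptor, averaged 236 ± 5.69 CPM in CiPC and 174 ± 86 CPM in P28 rods and was not called. All 8 calls held in both checks.

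Cholesterol synthesis and uptake genes were higher in 14 of 18 cases, with a median of 1.24; 13 held under all 4 other scalings and 2 in the bridged contrast. Srebf2, the factor that drives the pathway, averaged 239 ± 38.1 CPM in CiPC and 40.1 ± 6.07 CPM in P28 rods, a difference of 2.54 (SE 0.16), against 240.3 ± 17.9 CPM in P5 rods. Against P5 rods 3 genes of the list were higher. Nuclear lamina genes were higher in 7 and lower in 3 of 12, against 35.5% higher and 25.1% lower over all genes tested. The share of lower members was thus near that of all genes. Of these calls, 7 higher and 1 lower held under all 4 other scalings, and 6 and 3 in the bridged contrast. Lmna, encoding lamins A and C, which mature mouse rods hardly make, had 86.6, 70.6 and 43.4 CPM in CiPC, against 0.364, 0.395, 0.52 and 0.909 CPM in P28 rods, a difference of 5.41 (SE 0.24). Syne1, a nesprin that ties nuclei to the cytoskeleton, was lower with 8.96, 9.36 and 5.57 CPM in CiPC, against 356, 294, 273 and 277 CPM in P28 rods, a difference of -5.09 (SE 0.18).

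Ribosomal protein genes had 5 lower and 15 not called of 20, a share near that of all genes, with a median of -0.54, and none of the calls held under all 4 other scalings. Rps6 averaged 259.5 ± 39.9 CPM in CiPC and 575 ± 138 CPM in P28 rods, a difference of -1.13 (SE 0.19), and its call was lost without CiPC replicate 3 or without P28 replicate 2, where the difference fell just short of the size threshold; without either library the list had 3 lower members. Of 13 common reference genes, 4 were higher, 3 lower and 6 not called. These shares were near those of all genes tested, 35.5% higher and 25.1% lower. Actb averaged 2411 ± 297 CPM in CiPC and 324 ± 23 CPM in P28 rods, a difference of 2.88, and Gapdh averaged 1825 ± 91 CPM in CiPC and 10010.3 ± 1683 CPM in P28 rods, a difference of -2.44; the Gapdh call was lost under at least 1 other scaling. Axin2, a target of Wnt signalling, had 5.54, 6.22 and 3.27 CPM in CiPC, against 13.4, 8.72, 9.46 and 15.2 CPM in P28 rods, a difference of -1.08 (SE 0.25); the call was lost without CiPC replicate 3 (-0.85) or P28 replicate 4 (-0.95), and the difference was 0.08 with every library set to the same sum.

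The labelled identity of the groups was checked against defining markers. P28 rods held the 5 rod markers Nrl, Gnat1, Nr2e3, Sag and Pde6b, at more than 1000 CPM in every library, while CiPC held them at 2.39 to 91.8 CPM. Markers of other cells were present in both groups at differing levels. Of 12 macrophage genes all were higher in CiPC, but 5 held under all 4 other scalings, quantile normalization gave 5 higher, and 12 held in the bridged contrast. The list summed to 233 to 257 CPM in CiPC and 3.45 to 10.4 CPM in P28 rods. Lyz2 had 149, 161 and 176 CPM in CiPC, against 0.068, 0.286, 0.284 and 0 CPM in P28 rods and Tyrobp averaged 7.36 ± 0.375 CPM in CiPC and 0.244 ± 0.166 CPM in P28 rods, against 26.4 ± 1.2 CPM in fibroblasts before treatment. C1qa averaged 3.09 ± 0.785 CPM in CiPC and 0.386 ± 0.271 CPM in P28 rods, and Csf1r averaged 6.95 ± 1.18 CPM in CiPC and 1.38 ± 0.816 CPM in P28 rods. The acute phase, NF-kB and interferon lists were also higher in CiPC than in P28 rods. As log2(mean CPM + 1), the macrophage list had a median level of 4.77 in fibroblasts, 1.54 on day 8 and 2.66 in CiPC. In the same groups the acute phase list had 0.98, 6.58 and 2.38, and NF-kB targets had 4.05, 5.01 and 4.20. The interferon list had 2.03, 4.58 and 3.46. The part of macrophages in the results of those lists was not tested. Of 7 endothelial and pericyte genes tested 4 were higher and 1 lower, of which 3 and 1 held under all 4 other scalings, with sums of 649.6 to 702 CPM in CiPC and 17.6 to 45.8 CPM in P28 rods. Most of that sum was Kdr, which retinal progenitors also express in mouse, with 598, 624 and 654 CPM in CiPC, against 4.0, 7.03, 9.2 and 5.49 CPM in P28 rods. Pecam1, an endothelial junction protein, was lower with 0.925, 0.622 and 0.729 CPM in CiPC, against 9.5, 5.7, 28.1 and 33.8 CPM in P28 rods, and its P28 libraries spread widely. Hbb-bs, a beta globin gene with a near-identical copy, was listed at 0 in all CiPC libraries and had 0.746 to 2.06 CPM in P28 rods; the bridged difference was 0.02. It was the only globin gene of the list tested. Of 5 pigment epithelium genes tested 1 was higher, Dct with 3.33 ± 0.376 CPM in CiPC and 0.603 ± 0.338 CPM in P28 rods, a call lost under at least 1 other scaling; the list summed to 11.6 to 11.9 CPM in CiPC and 8.38 to 12.5 CPM in P28 rods. All 3 lens genes tested were higher and held in the bridged contrast, but 1 held under all 4 other scalings. That was Cryab, a small heat shock protein of many tissues, with 394, 381 and 345 CPM in CiPC, against 0.903, 2.9, 1.32 and 1.77 CPM in P28 rods. Crybb1, a crystallin of lens fibres, averaged 2.45 ± 0.473 CPM in CiPC and 0.0167 ± 0.0334 CPM in P28 rods, and its call was lost under at least 1 other scaling.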

How the data were processed

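RNA from sorted cells was sequenced. The submitters' processing notes name kallisto as the quantifier. The sources used here do not give its version, the transcript index, the build, the strand of the libraries or the sequencing depth. The deposited table holds 1 normalized CPM value per gene and library, a signal that the authors scaled further by a method not stated, since column sums are unequal. All 33 libraries in the table have a group in the labels; 3 P3 rod samples have no column there and were not analysed here. Values were taken as log2(CPM + 1), and genes reaching 1 CPM in 3 or more of the libraries compared (2 or more where the smallest group has 2) were tested with limma 3.58.1 in R 4.3.3, with a mean trend and Benjamini-Hochberg adjustment over all genes tested. A call needs an adjusted p under 0.05 and a difference of at least 1. On simulated data of this layout, 97, 95.5 and 100% of genes changed 3-fold, 5-fold and 10-fold were called, with 3 false calls among 12871 genes. The changed genes were drawn only from those of higher mean level, and all other genes were simulated without a difference. The rates therefore do not cover calls among genes of low CPM or shifts in scaling. Replicates are separate samples of a group in the labels.

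The members and gene lists were chosen with earlier results of these data known. Genes named are marker genes; up to 4 called members per list with the largest difference in the list's main direction, any called member against it and up to 3 not called; the 12 largest differences each way among genes of at least 10 CPM; and the 8 most abundant genes per group. A few genes that this rule names are not reported here. Defining cell type markers and the genes whose promoters are shown are named besides. Coordinates are those of GENCODE M21 (GRCm38), where 15144 of 15289 genes (99.05%) matched; promoter sequences are from RefSeq GRCm38.p6, which holds one for 10205 of the 13243 genes tested. Without strand, overlapping genes on opposite strands cannot be told apart, and genes with near-identical copies (actins, ribosomal proteins, Gapdh, globins, mitochondrial genes with nuclear copies) are uncertain. Alternatives covered scaling, pseudocount, filter, fit, each replicate and the deposit of origin; the alternatives for the P5 and P14 comparisons were added after the data were seen.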

Additional observations from a re-analysis of the deposited data

Results flagged for a closer look

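Within the 4 P28 libraries, 208 values (genes named and library measures) were checked for 1 library standing apart by Dixon's ratio of gap to range against its critical value, and 20 (9.62%) did, where chance gives about 1 in 20. P28 replicate 1 was the library apart for 17 of them, replicate 4 for 2 and replicate 2 for 1. Replicate 1 was the lowest for rod genes such as Esrrb (1270 CPM), Vtn (2265 CPM), Kcnj14 (1710 CPM), Fscn2 (239.4 CPM) and Bbs1 (328.8 CPM). It was also the lowest for Rax (65.86 CPM), Nefl (21.45 CPM), Pfkm (22.02 CPM), Hes6 (12.45 CPM), Srebf2 (31.09 CPM) and Aqp4 (3.031 CPM). It was the highest for Kcnv2 (1760 CPM), Map2 (1389 CPM), Syne2 (654.8 CPM), Prkca (393.4 CPM), Thrb (177.4 CPM) and Fads1 (11.6 CPM). Replicate 4 was the lowest for Pcp2, a bipolar gene (0.8885 CPM), and the highest for Scgn, a calcium-binding protein of cone bipolar cells (5.15 CPM). Replicate 2 was the highest for Gngt2, the cone transducin gamma subunit (5.462 CPM).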

How the results depend on the processing

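Counts of higher and lower genes moved by at most 1.5 times under other pseudocounts, filters, fits, quantile and median-of-ratios scaling, treat, the bridged contrast and P14 rods in place of P28 rods. With every library set to the same sum there were 7794 higher and 1166 lower genes, with that sum taken without rod and mitochondrial genes 1947 lower, and with no fold threshold 4996 lower. Leaving out each library in turn gave 4668 to 4779 higher and 3259 to 3369 lower genes. P5 rods against the mean of P4 and P6 rods gave 1668 calls with a pseudocount of 5. Replicate numbers did not pair the samples (correlations of deviations -0.242, -0.0119 and -0.171), and the fit with a replicate block gave 4701 higher and 3353 lower genes. Differences of the following genes changed sign, and the cause was not tested. With equal sums they were 0.08 for Axin2, 0.17 for Rpl7 and 0.21 for Rps6. After quantile normalization they were 0.38 for Rpl7, 2.15 for mt-Co1, 0.62 for mt-Co2, 0.29 for mt-Co3, 0.48 for mt-Cytb and 0.77 for mt-Nd1. In the bridged contrast they were -1.42 for Grm6, -0.96 for Pcp2, 0.02 for Hbb-bs, 0.85 for Opn1sw and 0.53 for Rpl7. Against P14 rods they were -0.21 for Dct and -0.04 for Elavl3. Read depth is unknown, so low values, where most P28 libraries hold under 1 CPM, have unknown precision.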
